A study of Mus musculus with 16 samples.

Results

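The response of mouse dendritic cells to LPS in medium of normal osmolarity was followed in 8 of the 16 microarrays of a study that also raised cells in salt-enriched medium. The compared groups were the 4 arrays of cells kept at 290 mOsm/L without LPS and the 4 arrays of cells kept at 290 mOsm/L with LPS, and a number shared between the groups marks the same mouse. Bone marrow cells from C57BL/6 mice received 10 ng/mL GM-CSF, were collected on day 7, plated again, and left untreated or given LPS at 10 ng/mL for 6 h. The strain, GM-CSF, the collection and the second plating were thus common to both groups. The sources used here do not give the age and sex of the mice or any sorting step. All probe sets with a single gene symbol were members, 20646 of 22549, and they represent 19272 genes, each tested through its probe set with the highest mean. Values are log2 levels on Affymetrix Mouse Gene 1.0 ST arrays, so a difference of 1 is a 2-fold change, and the number of arrays limits the precision. Per the labels the replicates are separate animals.

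LPS is a glycolipid of the outer membrane of Gram-negative bacteria. It is held by Cd14 and recognised by the receptor pair of Tlr4 and Ly96, and the signal runs through an arm with the adaptor Myd88, which activates NF-kB and MAP kinases, and an arm with the adaptor Ticam1, which activates Irf3 and type I interferon. In dendritic cells this is known to start maturation: cytokines and chemokines are secreted, costimulatory ligands and the homing receptor Ccr7 appear on the surface, uptake of antigen falls and antigen presentation is reorganised.

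Replicates lay close together. Between replicate arrays the gene-wise differences had an SD of 0.151 to 0.181, against 0.6 to 0.652 between an untreated and an LPS array, and array medians lay between 6.78 and 6.83. The levels matched in part the cell type named in the labels. The dendritic cell integrin gene Itgax averaged 12.13 without LPS, the class II genes H2-Aa and H2-Ab1 13.29 and 13.37, and Cd74 13.60, all far above the median of all values, 6.83. Zbtb46 and Flt3, which mark conventional dendritic cells more narrowly, stood at 6.80 and 6.34 without LPS and at 7.35 and 7.30 with it. Some genes typical of macrophages and neutrophils were bright as well, with Adgre1 at 12.07, Csf1r at 13.04, C1qb at 12.97 and Ngp at 12.29. Others were not. The macrophage genes Cd163 and Timd4 and the neutrophil gene Ctsg lay below the median without LPS, at 5.69, 6.00 and 5.95. Vsig4 of macrophages and Elane and Mpo of neutrophils lay nearer to it, at 7.32, 7.08 and 7.29. The Cd3d and Cd3g genes of T cells and the Gzma gene of natural killer cells had means below the median in both groups, and Cd3e lay near it, at 6.74 without LPS and 6.88 with it. Of the other T cell markers, Cd4 and Cd28 lay above the median without LPS, at 9.21 and 8.46. With LPS they stood at 8.46 and 6.17. In a bulk sample fewer cells of a type and less RNA per cell cannot be told apart.

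LPS changed a large part of the transcriptome within 6 h. At an adjusted p under 0.05 (limma, Benjamini-Hochberg over 19272 genes), 8756 genes were called, 45.4% of all: 3548 were higher with LPS (18.4%) and 5208 lower (27.0%). The shares of 18.4% and 27.0% are the background for each count of list members given below. They include 8927 genes that lay below the median of all values on each of the 8 arrays, and many lists hold few or none of these. Among the 7365 genes left by a stricter filter on low values, 2201 were higher and 3729 lower, with a median change of -0.146. Lists with many lower members are to be read beside these counts too. The median change over all genes was 0.021. The rises were the larger changes. At least 2-fold, 769 genes rose (3.99%) and 579 fell (3.00%); at least 4-fold, 268 rose (1.39%) and 52 fell (0.270%); at least 16-fold, 51 rose (0.265%) and 0 fell. All 769 and all 579 genes moved the same way in 4 of 4 mice, and their groups did not overlap. This follows largely from their choice by call and size of change on the same arrays, so it is no separate result. Over all genes tested, 18.2% had LPS arrays wholly above and 26.3% wholly below the untreated arrays. Many calls were small, since 4914 of the 8756 were changes under 0.5 on the log2 scale. Of the 769 genes, 148 were below the median of all values on each untreated array, and 120 of these were above it on each LPS array. The opposite passage, from above the median on 4 untreated arrays to below it on 4 LPS arrays, was made by 73 of the 579.

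**Figure D1:**
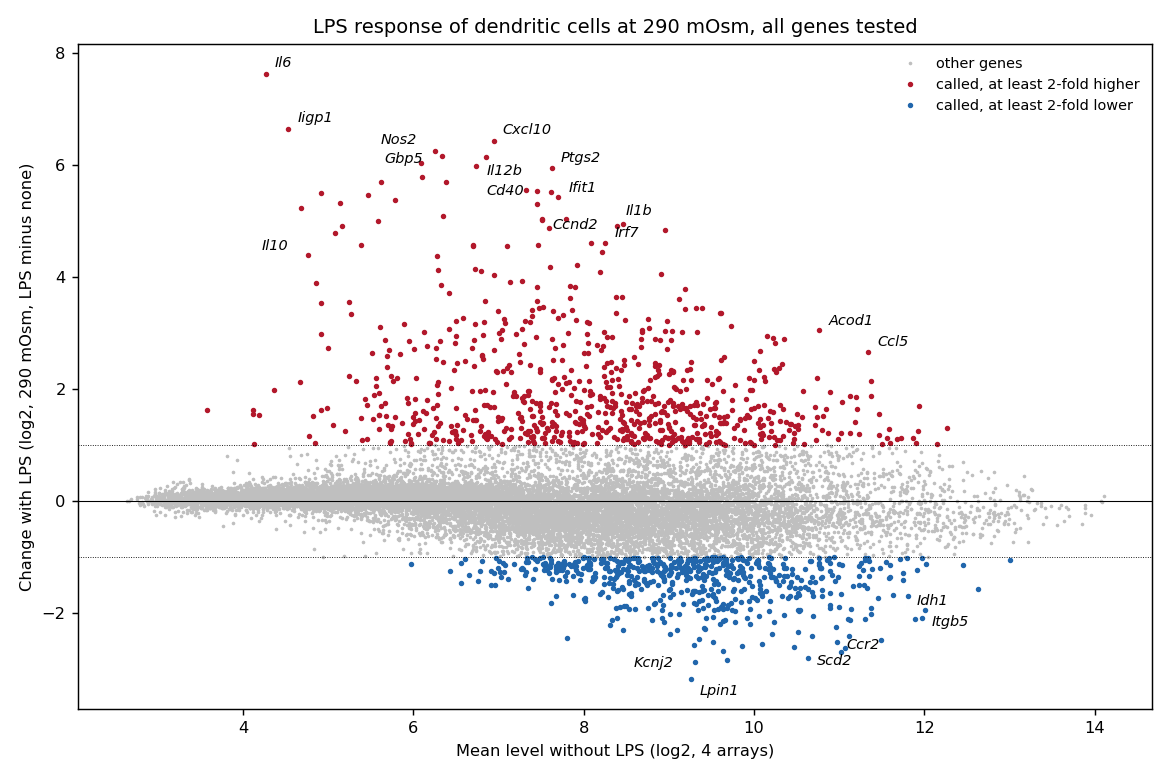
Change with LPS at 290 mOsm (log2, vertical axis) against the mean level without LPS (log2, horizontal axis) for 19272 genes, with genes called at least 2-fold higher in red and at least 2-fold lower in blue. The highest point is Il6 at 7.62, the lowest is Lpin1 at -3.17, and the blue points lie at higher starting levels than many of the red ones.

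The cytokine gene Il6 changed most. It read 4.13, 4.39, 4.18 and 4.35 on the untreated arrays of mice 1, 2, 3 and 4, and 11.80, 12.04, 11.77 and 11.94 on their LPS arrays, an order of mice kept in every list of 4 values, a rise of 7.62 ± 0.086 on the log2 scale (197-fold, adjusted p = 7.27e-22). The 4 mice differed by little in this, with an SD of 0.0459 for the within-mouse changes. Cxcl10, a chemokine that draws activated T cells, read 6.83, 7.28, 6.39 and 7.26 without LPS and 13.42, 13.36, 13.35 and 13.37 with it (6.43 ± 0.16, 86.3-fold). Iigp1, a GTPase that attacks the vacuoles of intracellular parasites, rose 99.6-fold, and Nos2, the inducible nitric oxide synthase, rose 75.8-fold from 6.26 ± 0.19 to 12.50 ± 0.13 (SD, n = 4). The rest of the 20 largest rises among named genes were Gbp5, Ifi205, Cd69, Il12b, Ptgs2, Ifi213, Cxcl9, Slfn4, Ms4a4c, Cmpk2, Ifit2, Tnfsf10, Ch25h, Ifit1, Ifi208 and Cd40, from 6.17 ± 0.091 for Gbp5 down to 5.31 ± 0.071 for Cd40. By what these genes are known for, they are interferon-induced antiviral or GTPase genes, cytokines and chemokines, enzymes of lipid and gas mediators, and surface or secreted proteins of lymphocyte contact.

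The largest falls were smaller and of another kind. Lpin1, a phosphatidate phosphatase of lipid synthesis, read 9.32, 9.04, 9.51 and 9.16 without LPS and 5.78, 5.91, 6.24 and 6.40 with it, a fall of 3.17 ± 0.12 (9-fold lower, adjusted p = 1.25e-14). Kcnj2, an inward rectifier potassium channel, fell by 2.87 ± 0.12, the stress-induced metabolic regulator Sesn1 by 2.84 ± 0.084 and the fatty acid desaturase Scd2 by 2.80 ± 0.16. Ccr2, the receptor that guides monocytes out of the marrow, read 11.21, 10.96, 11.09 and 10.63 without LPS and 8.60, 8.43, 8.30 and 8.48 with it (-2.52 ± 0.16). In each of these 5 genes every LPS array lay below every untreated array, as in all 579 genes at least 2-fold lower. The other genes among the 20 lowest were Pdxk, Gask1b, Rcbtb2, Tmem154, Rab3il1, Arhgap18, Tpcn1, Slc46a3, Glul, Arrdc3, Klrb1a, Daglb, Fads1, Stard9 and Hip1, between -2.70 ± 0.081 for Pdxk and -2.37 ± 0.081 for Hip1.

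**Figure D2:**
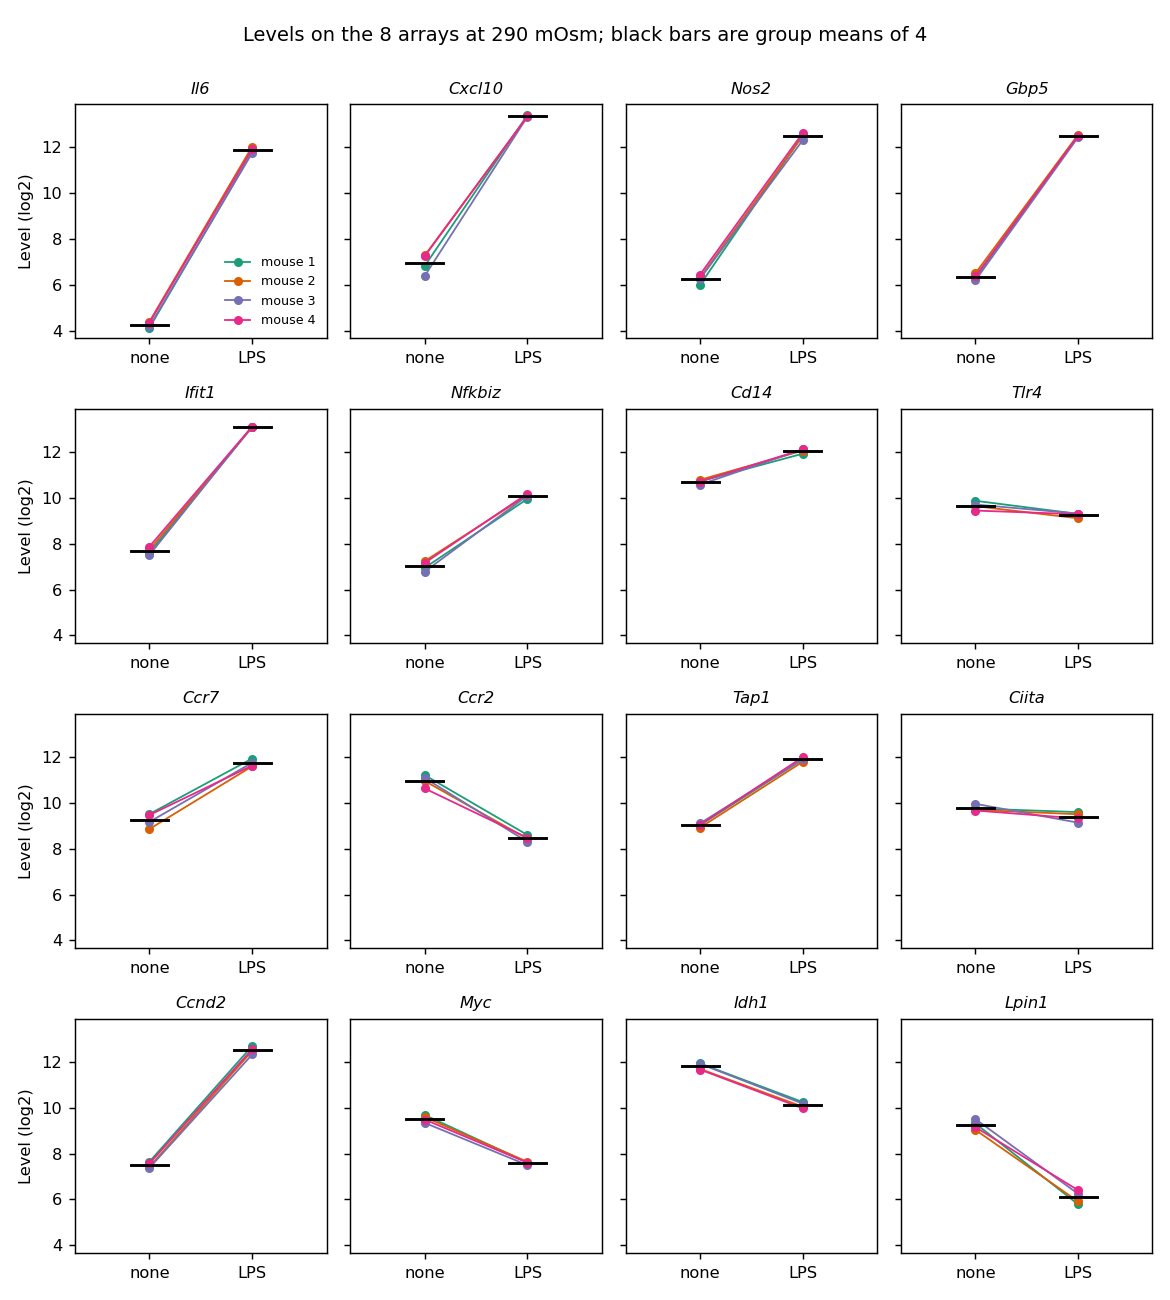
Levels (log2) of 16 genes on the 8 arrays at 290 mOsm, untreated at left and LPS at right in each panel, with a line for each of the 4 mice and a black bar for the group mean. Each line of Il6 runs from near 4 to near 12, the lines of Tlr4 and Ciita fall slightly, and those of Ccr2, Myc, Idh1 and Lpin1 fall in every mouse.

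Some promoters of genes that rose hold matches to known binding motifs, and 10 upstream stretches, chosen for such matches, are shown because they carry the letters behind the counts that follow. They were taken from RefSeq's mouse genes (GRCm38.p6) and run 5′ to 3′ on the gene's strand. Capitals mark matches, on either strand, to the interferon-stimulated response element, a pair of GAAA boxes with any 2 bases (NN) between them, or to the kappaB consensus bound by NF-kB; overlapping matches give 1 longer run of capitals. Positions are counted back from the start of transcription, where the last base before the start is -1.
Ifit1 (chr19:34640769-34640828, plus strand, bases -120 to -61): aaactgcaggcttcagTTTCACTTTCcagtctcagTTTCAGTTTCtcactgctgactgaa
Ifit3 (chr19:34583359-34583438, plus strand, bases -170 to -91): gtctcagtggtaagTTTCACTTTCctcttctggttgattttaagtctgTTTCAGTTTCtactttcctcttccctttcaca
Rsad2 (chr12:26456543-26456592, minus strand, bases -140 to -91): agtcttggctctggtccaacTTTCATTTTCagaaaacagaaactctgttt
Irgm1 (chr11:48871421-48871480, minus strand, bases -60 to -1): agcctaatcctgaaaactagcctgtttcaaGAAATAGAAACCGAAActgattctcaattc
Gbp5 (chr3:142496754-142496873, plus strand, bases -180 to -61): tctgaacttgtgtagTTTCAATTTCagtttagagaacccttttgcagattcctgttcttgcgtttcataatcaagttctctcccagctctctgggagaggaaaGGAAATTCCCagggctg
Cxcl10 (chr5:92348980-92349109, minus strand, bases -220 to -91): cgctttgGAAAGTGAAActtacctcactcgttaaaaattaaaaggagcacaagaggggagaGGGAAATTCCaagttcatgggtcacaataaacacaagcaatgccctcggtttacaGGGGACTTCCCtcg
Il6 (chr5:30013034-30013093, plus strand, bases -80 to -21): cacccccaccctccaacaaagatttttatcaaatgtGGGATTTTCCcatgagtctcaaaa
Nfkbia (chr12:55492648-55492707, minus strand, bases -60 to -1): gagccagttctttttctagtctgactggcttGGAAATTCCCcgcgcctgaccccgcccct
Nfkb2 (chr19:46304677-46304736, plus strand, bases -60 to -1): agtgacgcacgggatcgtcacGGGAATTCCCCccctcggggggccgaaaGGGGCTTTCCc
Cxcl1 (chr5:90891155-90891214, plus strand, bases -90 to -31): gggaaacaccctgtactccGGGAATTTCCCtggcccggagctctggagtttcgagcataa
The interferon-induced genes Ifit1 and Ifit3 hold 2 separate response elements each, Irgm1 holds 2 that overlap, and Rsad2 holds 1. Gbp5 and Cxcl10 hold both kinds of motif, and Il6, Nfkbia, Nfkb2 and Cxcl1 hold kappaB matches alone. Their positions are -104 to -95 and -85 to -76 in Ifit1, -44 to -35 in Il6, -29 to -20 in Nfkbia, and -165 to -156 and -77 to -68 in Gbp5.

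Over all genes the 250 bases upstream of the start were searched for both motifs. A sequence was held for 15150 of the 19272 genes, and a gene counted when any of its promoters matched. The response element was present in 3.38% of these genes (512), in 10.2% of those at least 2-fold higher with LPS (61 of 599), in 17.9% of those at least 4-fold higher (37 of 207) and in 35.1% of those at least 16-fold higher (13 of 37). Among genes at least 2-fold lower it was present in 1.91% (9 of 471). The kappaB consensus was present in 9.48% of all genes (1436), and in 16% (96), 18.4% (38) and 21.6% (8) of the same classes of higher genes, against 10.6% of the genes at least 2-fold lower. Matches of both motifs shared a base in 2 of the 18630 promoters searched. In the gene lists the share with a kappaB match was 47.4% for the NF-kB subunits and inhibitors (9 of 19) and 40% for the cytokines (8 of 20), but also 31.8% for the TCA cycle (7 of 22) and 28% for sterol and fatty acid synthesis (7 of 25), lists in which lower calls prevailed. A response element was present in 29.7% of the interferon-stimulated effectors (11 of 37). These counts describe letters in a window and are no test, and several of the largest rises, among them Cmpk2, Cxcl9, Il12b, Slfn4 and Tnfsf10, had neither motif in it.

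The receptor itself was not raised. Tlr4 read 9.88, 9.65, 9.72 and 9.46 without LPS and 9.31, 9.12, 9.32 and 9.30 with it, so the groups did not overlap, and it fell by 0.41 ± 0.085 (adjusted p = 0.000378). Cd14, which hands LPS to the receptor, read 10.73, 10.80, 10.59 and 10.72 without LPS and 11.94, 12.08, 12.13 and 12.13 with it (1.36 ± 0.064). Of 21 genes for the Tlr4 complex and its adaptors 14 were called higher and 5 lower, with a median change of 0.357. The adaptor Myd88 rose by 1.39 ± 0.072, the kinase Ikbke by 1.40 ± 0.063, and Irak3, an inactive kinase that restrains the pathway, by 1.34 ± 0.070. Ly96, the partner of the receptor, rose by 0.24 ± 0.065, a call lost under quantile normalization (-0.0031). The proximal kinase Irak1 fell by 0.57 ± 0.052 and the inhibitor Tollip by 0.34 ± 0.052. Ticam1, the adaptor of the interferon arm, rose by 0.36 ± 0.057. Of 22 receptor genes for other microbial ligands 17 were higher and 4 lower, with a median of 1.18. The RNA sensors Ifih1, Dhx58 and Tlr3 rose by 3.79 ± 0.071, 3.01 ± 0.10 and 2.74 ± 0.090. The intracellular LPS sensor Casp4 rose by 3.06 ± 0.081 and the inflammasome receptor Nlrp3 by 1.73 ± 0.091. Mavs, through which the RNA helicases signal, fell by 0.97 ± 0.078, and so did the adaptors Pycard (-0.53 ± 0.070) and Sting1 (-0.46 ± 0.079).

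Subunits and inhibitors of NF-kB rose together. Of 22 genes 19 were called higher and 2 lower (median 1.28, against 0.021 for all genes), but under cyclic loess, which evens out trends with signal level, 0 were lower. Nfkbiz, a nuclear coactivator needed for secondary response genes such as Il6, read 6.96, 7.25, 6.79 and 7.17 without LPS and 9.97, 10.14, 10.11 and 10.20 with it (3.06 ± 0.097). The inhibitor genes Nfkbia, Nfkbib and Nfkbie rose by 1.65 ± 0.089, 1.97 ± 0.065 and 1.51 ± 0.11, and the deubiquitinase Tnfaip3, which ends the signal, by 1.82 ± 0.10. Among the subunits, Nfkb2 rose by 2.00 ± 0.092, Relb by 1.28 ± 0.079, Rel by 1.28 ± 0.067 and Rela by 0.75 ± 0.073. Cyld, another deubiquitinase of the pathway, rose by 0.72 ± 0.078.

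The factors known as immediate early genes moved in both directions at 6 h. Of 28 AP-1, EGR, KLF and related genes 10 were higher and 8 lower, where 18.4% of all genes were higher and 27.0% lower. Their median change was 0.036, against 0.021 for all genes. Fos read 9.06, 9.15, 9.34 and 9.59 without LPS and 7.30, 7.30, 7.63 and 7.64 with it, a fall of 1.82 ± 0.12. Egr2, Egr1, Jun and Klf10 also fell, by 1.92 ± 0.085, 1.11 ± 0.10, 1.00 ± 0.079 and 1.31 ± 0.079, and the growth regulator Myc fell by 1.94 ± 0.095. Atf3, which limits inflammatory transcription, was bright in both groups and did not pass the test (0.14 ± 0.069, adjusted p = 0.12), although it did after median centring (adjusted p = 0.0452). The rises in this list were led by Batf2 (2.90 ± 0.088) and Batf (2.31 ± 0.092), partners of Irf proteins at compound sites. Cebpb rose by 0.98 ± 0.072 while Cebpa fell by 1.91 ± 0.073. Of 21 genes for feedback on MAP kinases and mRNA stability 11 rose and 6 fell, where 18.4% of all genes rose and 27.0% fell: Dusp16 (2.19 ± 0.082), Dusp2 (1.68 ± 0.065) and the RNase gene Zc3h12a (1.69 ± 0.072) were higher, and Dusp3 (-2.02 ± 0.071), Dusp7 (-1.27 ± 0.068) and Zfp36l2 (-1.94 ± 0.090) lower.

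Cytokine transcripts rose widely, 25 of 29 genes higher and 2 lower, with a median change of 1.84, where 18.4% of all genes were higher. At least 2-fold, 16 were higher and 1 lower. The means of 9 of the 29 lay below the median of all values in both groups. Il12b, the subunit shared by interleukins 12 and 23, read 7.04, 6.58, 6.32 and 6.99 without LPS and 12.75, 12.87, 12.53 and 12.73 with it (5.99 ± 0.15). Its partner for interleukin 12, Il12a, rose by 2.63 ± 0.097, whereas the partner for interleukin 23, Il23a, did not pass the test (0.13 ± 0.12, adjusted p = 0.408) and stayed under the median of all values. The interleukin 27 pair rose together, Il27 by 3.20 ± 0.094 and Ebi3 by 1.84 ± 0.074. Il1b and Il1a rose by 4.91 ± 0.16 and 4.05 ± 0.14, and their soluble antagonist Il1rn by 0.90 ± 0.075. The anti-inflammatory cytokine Il10 read 4.74, 4.67, 4.62 and 5.02 without LPS and 9.21, 8.93, 9.005 and 9.47 with it (4.39 ± 0.11), so all 4 mice passed from below to above the median. Il15, which sustains natural killer and memory T cells, rose by 3.47 ± 0.10 and its presenting receptor Il15ra by 3.39 ± 0.078. The interferon gene Ifnb1 rose by 0.50 ± 0.069, with values of 5.88, 6.11, 5.96 and 6.09 with LPS, all below the median of all values. The angiogenic factor Vegfa read 9.85, 9.90, 9.64 and 9.74 without LPS and 7.75, 7.84, 7.75 and 7.90 with it, and was 1 of the 2 cytokine genes that fell (-1.97 ± 0.11). The other was Tgfb1 (-0.56 ± 0.068).

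Genes of the TNF family were mostly higher. Of 26 ligand and receptor genes 18 were higher and 4 lower, with a median of 0.472. Tnfsf10, which encodes the death ligand TRAIL, rose by 5.50 ± 0.13, Tnfsf15 by 3.82 ± 0.10 and Tnfsf4, the Ox40 ligand, by 2.65 ± 0.13. Tnf was already bright without LPS and rose by 2.21 ± 0.14. Among the receptors, Cd40 read 7.46, 7.45, 7.34 and 7.57 without LPS and 12.77, 12.76, 12.70 and 12.85 with it (5.31 ± 0.071), and Fas rose by 2.02 ± 0.085. Tnfrsf21 and Tnfrsf26 fell by 1.22 ± 0.067 and 0.86 ± 0.097.

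Chemokine genes rose in both structural classes, and their receptors divided. Of 16 CC chemokines 12 were higher and 1 lower (median 1.83). Ccl12 rose by 4.79 ± 0.13, Ccl17 by 4.10 ± 0.29, Ccl4 by 3.40 ± 0.11 and Ccl5 by 2.67 ± 0.12. Ccl17 and Ccl22, which draw Ccr4-bearing T cells, both rose, Ccl22 by 2.50 ± 0.11. Of 14 CXC and related chemokines 10 were higher and 3 lower (median 1.36). The interferon-inducible Cxcl9 rose by 5.71 ± 0.080 and Cxcl11 by 2.77 ± 0.11, and the neutrophil attractants Cxcl3, Cxcl5, Cxcl2 and Cxcl1 by 3.04 ± 0.25, 2.72 ± 0.13, 2.16 ± 0.19 and 1.74 ± 0.13. Cxcl14 fell by 1.67 ± 0.11. Ccr7, which takes maturing dendritic cells to the lymph node, read 9.52, 8.86, 9.17 and 9.47 without LPS and 11.94, 11.60, 11.76 and 11.64 with it, a rise of 2.48 ± 0.12, in contrast to the fall of Ccr2 given above. The atypical receptor Ccrl2 rose by 2.46 ± 0.085, and Cxcr4, Cx3cr1 and Ccr1 fell by 1.33 ± 0.093, 0.66 ± 0.10 and 0.61 ± 0.078. Of 18 receptor genes 9 were higher and 5 lower. With genes under the median of all values left out, 10 were tested and 5 were higher.

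Interferon-stimulated genes rose without exception in the list used. All 46 genes of a list of interferon-stimulated effectors were called higher, with a median change of 2.66, against 18.4% of all genes called higher. Ifit1, which binds viral RNA lacking cap methylation, read 7.62, 7.75, 7.52 and 7.88 without LPS and 13.11, 13.10, 13.12 and 13.13 with it (5.42 ± 0.10, 42.9-fold). Cmpk2 and Rsad2, neighbours that both act on nucleotides, rose by 5.54 ± 0.096 and 4.84 ± 0.094. The oligoadenylate synthetase genes of the list ranged from 5.05 ± 0.095 for Oasl1 to 2.52 ± 0.085 for Oas1a. Mx2 and Mx1, dynamin-like GTPases, rose by 5.01 ± 0.13 and 4.57 ± 0.13. The smallest rises in the list were those of Ifitm2 (0.77 ± 0.063) and Lgals3bp (0.82 ± 0.085). All 10 interferon-induced GTPases with a usable probe set rose, with a median of 3.52. Gbp5 read 6.30, 6.50, 6.19 and 6.36 without LPS and 12.51, 12.56, 12.45 and 12.52 with it (6.17 ± 0.091), Gbp4 rose by 5.10 ± 0.19, Irgm1 by 3.24 ± 0.074 and Gbp8 by 2.50 ± 0.15. All 8 Schlafen genes rose too, from 1.53 ± 0.062 for Slfn2 to 5.71 ± 0.13 for Slfn4. Members of these families are similar in sequence and can share probes, so the single values may mix relatives.

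Regulators of interferon signalling moved in a graded way. Of 31 receptor, kinase, STAT, IRF and SOCS genes 23 were higher and 5 lower, with a median of 0.743. Irf7, which amplifies type I interferon, read 8.23, 8.002, 8.23 and 8.55 without LPS and 12.87, 12.83, 12.80 and 12.99 with it (4.62 ± 0.10). The negative regulators Usp18, Socs3 and Socs1 rose by 4.44 ± 0.093, 3.91 ± 0.084 and 2.43 ± 0.11, and the second probe set of Socs3 gave 2.86. Stat2 rose by 3.04 ± 0.091, Stat4 by 2.80 ± 0.18, Jak2 by 2.34 ± 0.084 and Irf1 by 2.30 ± 0.058, while the change of Irf3, the first factor of the pathway, was -0.19 ± 0.061, a call lost under quantile normalization (adjusted p = 0.63), under cyclic loess (-0.011, adjusted p = 0.896), without mouse 3 (adjusted p = 0.0707) or without its LPS array alone (adjusted p = 0.06). Ifngr1, the ligand-binding chain of the interferon gamma receptor, fell by 1.59 ± 0.060, and the partner chain Ifngr2 rose by 0.47 ± 0.050.

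Many of the genes that rose lie beside each other. Of the 769 genes at least 2-fold higher, 216 (28.1%) had an adjacent tested gene that was also at least 2-fold higher, against 1463 of all 19258 genes placed on RefSeq's order (7.6%). There were 20 runs of 3 or more, and their genes were chosen after the values were seen. The longest run was 8 Schlafen genes on chromosome 11, and next came 7 Ms4a genes on chromosome 19, from Ms4a4a to Ms4a6d. The Ms4a genes encode small membrane proteins of myeloid and lymphoid cells, and Ms4a4c rose by 5.55 ± 0.13. A run of 5 genes on chromosome 1 joined the DNA sensor Aim2 to Ifi214, Ifi213, Ifi209 and Ifi208, and another of 5 on chromosome 19 joined Ifit2 to Ifit1. Psmb9, Tap1, Psmb8 and Tap2 formed a run on chromosome 17 within the class II region. Neighbours in such clusters are often recent duplicates that can share probes, and the part of this in the runs was not tested.

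Genes of maturation and costimulation were higher in 26 of 31 cases and lower in 5, with a median of 1.65. Cd69, an early activation marker that holds cells in tissue, read 5.99, 6.61, 5.66 and 6.08 without LPS and 12.34, 12.07, 12.07 and 12.05 with it (6.05 ± 0.17). The ligands of Cd28, Cd86 and Cd80, rose by 2.33 ± 0.11 and 2.03 ± 0.067, and Icosl by 2.65 ± 0.090. Fscn1, the actin bundler of dendrites, rose by 3.37 ± 0.12, Il2ra by 4.14 ± 0.19, and the inhibitory ligand Cd274 by 1.87 ± 0.073. Falls were seen for the inhibitory receptors Vsir (-1.89 ± 0.067) and Havcr2 (-1.77 ± 0.092), and 3 smaller ones, of which Cd276 was the largest (-0.57 ± 0.077).

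The class I and class II presentation pathways went different ways. Of 20 class I and immunoproteasome genes 17 were higher and 3 lower (median 1.34). The peptide transporter gene Tap1 read 9.03, 8.92, 9.11 and 9.05 without LPS and 11.91, 11.80, 11.91 and 12.002 with it (2.87 ± 0.081), and the immunoproteasome subunits Psmb9, Psmb10 and Psmb8 rose by 1.98 ± 0.078, 1.81 ± 0.065 and 1.47 ± 0.071. Nlrc5, the transactivator of class I genes, rose by 3.21 ± 0.073, and its 19 probe sets ranged from 1.14 to 3.48. B2m, near the top of the scale already, rose by 0.19 ± 0.048, a call lost under quantile normalization (0.084). The 3 falls were the general chaperones Calr, Pdia3 and Canx. Of 17 class II genes 4 were higher and 9 lower (median -0.166), where 18.4% of all genes were higher and 27.0% lower. Ciita, their master regulator, read 9.76, 9.70, 9.96 and 9.67 without LPS and 9.60, 9.51, 9.14 and 9.32 with it, a fall of 0.38 ± 0.10 (adjusted p = 0.00383); without mouse 3 the change was -0.23 (adjusted p = 0.0933). H2-DMa, which loads peptide, fell by 0.63 ± 0.084 and the thiol reductase Ifi30 by 0.69 ± 0.057, whereas H2-Ab1 and Cd74 did not pass the test (-0.089 ± 0.048 and -0.068 ± 0.050), except under some alternatives such as cyclic loess (-0.16 and -0.16). These 2 lay above 13 on each array. Marchf1, the ligase that removes class II from the surface, rose by 0.89 ± 0.073.

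Of 31 uptake receptor genes 10 were higher and 16 lower, with a median of -0.242, and over all genes lower calls (27.0%) also outnumbered higher ones (18.4%). The scavenger receptors Cd93, Scarb1, Lrp1 and Stab1 fell by 1.69 ± 0.067, 1.33 ± 0.082, 1.29 ± 0.083 and 1.26 ± 0.075, and the mannose receptor Mrc1 by 0.78 ± 0.056. Among the higher genes were Marco (2.89 ± 0.099), the mycobacterial glycolipid receptor Clec4e (2.94 ± 0.18) and the inhibitory lectin Siglece (2.59 ± 0.12). Of 17 Fc and complement genes 7 were higher and 10 lower. Cfb, a protease component of the alternative pathway, rose by 4.87 ± 0.14, and the activating receptors Fcgr1 and Fcgr4 by 2.16 ± 0.080 and 1.49 ± 0.081. The anaphylatoxin receptor C5ar1 fell by 0.95 ± 0.068 and the C1q chain genes C1qa, C1qb and C1qc by 0.52 ± 0.059, 0.19 ± 0.049 and 0.53 ± 0.060.

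Enzymes of small inflammatory mediators gave some of the largest single changes. Nos2 read 6.001, 6.31, 6.27 and 6.45 without LPS and 12.54, 12.51, 12.32 and 12.64 with it. The genes that supply it rose as well, the arginine transporter Slc7a2 by 2.82 ± 0.073 and Gch1, which makes its cofactor, by 2.04 ± 0.10, while Arg1 fell by 0.30 ± 0.088 at levels under the median. Ch25h, which makes 25-hydroxycholesterol, rose by 5.46 ± 0.16, the histidine decarboxylase Hdc by 3.08 ± 0.13 and Acod1, which makes itaconate, by 3.05 ± 0.18. Of the 16 genes in this list 11 were higher and 4 lower (median 1.55). In prostanoid and leukotriene synthesis 3 of 16 genes rose and 7 fell. The 3 form the route to prostaglandin E2: the phospholipase Pla2g4a (1.64 ± 0.070), the cyclooxygenase Ptgs2 (5.96 ± 0.24) and the terminal synthase Ptges (2.70 ± 0.12). The synthases of prostaglandin D2 and thromboxane, Hpgds and Tbxas1, fell by 1.55 ± 0.100 and 1.34 ± 0.056, and Hpgd, which degrades prostaglandins, by 1.07 ± 0.12. In the leukotriene branch Alox5ap and Lta4h fell by 0.99 ± 0.063 and 0.91 ± 0.076.

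Genes of the TCA cycle fell as a group. Of 25 genes 0 were higher and 20 lower, with a median of -0.502, against 27.0% of all genes called lower; under cyclic loess the counts were 3 and 17. Idh1, the cytosolic isocitrate dehydrogenase, read 11.94, 11.70, 11.92 and 11.67 without LPS and 10.25, 10.05, 10.18 and 9.98 with it, a fall of 1.69 ± 0.071 (3.24-fold lower). The mitochondrial isocitrate dehydrogenase genes Idh3a, Idh3g, Idh2 and Idh3b fell by 1.01 ± 0.071, 0.95 ± 0.056, 0.90 ± 0.057 and 0.69 ± 0.054, and Fh1 by 1.00 ± 0.087. The succinate dehydrogenase subunits Sdhb and Sdha fell by 0.65 ± 0.053 and 0.48 ± 0.051. Glycolysis did not move as a unit: of 28 glycolysis and hypoxia genes 13 were higher and 11 lower, against 18.4% and 27.0% of all genes. Pfkfb3, whose product drives phosphofructokinase, rose by 2.42 ± 0.077, the hexose transporter Slc2a6 by 2.22 ± 0.091 and Hif1a by 0.86 ± 0.079. The main glucose transporter Slc2a1 fell by 0.52 ± 0.098, and Pkm and Tpi1 by 0.47 ± 0.075 and 0.38 ± 0.10.

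Lipid genes were more often lower than higher, and Lpin1 fell most among them. Of 31 sterol and fatty acid synthesis genes 4 were higher and 19 lower (median -0.289), but under cyclic loess 11 were lower, so the count for this list depends on the scaling. Beside Lpin1 and Scd2, the falls that exceeded 1 were those of Fads1 (-2.41 ± 0.078), the last sterol reductase Dhcr7 (-1.79 ± 0.075) and the elongase Elovl5 (-1.35 ± 0.074). Idi1, an early isoprenoid enzyme, went the other way (2.12 ± 0.16). Insig1, which responds to sterol supply, did not pass the test (-0.051 ± 0.11). Of 15 genes for cholesterol efflux and lipid uptake 4 were higher and 11 lower (median -0.406). Pparg, the nuclear receptor of lipid handling, read 9.49, 9.47, 9.60 and 9.52 without LPS and 7.24, 7.45, 7.51 and 7.62 with it (-2.07 ± 0.088), Fabp4 fell by 0.90 ± 0.084, and the exporter Abca1 by 0.81 ± 0.073. Nr1h3, a sterol-sensing receptor, rose by 1.01 ± 0.076.

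Growth genes mostly fell. Of 40 cell cycle genes 5 were higher and 29 lower (median -0.519), and of 24 ribosome biogenesis genes 1 was higher and 21 lower (median -0.637). Over all genes 18.4% were higher and 27.0% lower. Bub1 fell by 1.36 ± 0.14, Cdk4 by 1.32 ± 0.048 and Ccna2 by 1.03 ± 0.11, while the proliferation marker Mki67 did not pass the test (0.14 ± 0.095, adjusted p = 0.257), and was higher under cyclic loess (0.25, adjusted p = 0.0319). Ccnd2, a partner of Cdk4, stood apart. It read 7.65, 7.42, 7.38 and 7.57 without LPS and 12.70, 12.49, 12.33 and 12.56 with it, a rise of 5.02 ± 0.087 (32.3-fold). In the nucleolus, Dkc1, Wdr12 and Nop58 fell by 1.67 ± 0.078, 1.37 ± 0.083 and 1.26 ± 0.10, and the RNA polymerase I subunits Polr1b and Polr1a by 0.93 ± 0.066 and 0.87 ± 0.068. Myc, which drives both programmes in many cells, read 9.69, 9.59, 9.34 and 9.48 without LPS and 7.61, 7.64, 7.50 and 7.60 with it. Of 23 p53 and FoxO target genes 5 were higher and 13 lower, with Sesn1 and Trp53inp1 (-1.64 ± 0.100) lowest and Gadd45b (2.53 ± 0.10) highest. Of 15 apoptosis regulators 7 were higher, led by the caspase inhibitor Cflar (2.35 ± 0.069), and 4 lower, led by Casp6 (-1.24 ± 0.091).

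Lysosomal genes were lower in 22 of 30 cases and higher in 6 (median -0.388), against 27.0% and 18.4% of all genes. The falls were small, at most 1.04 ± 0.071 for the proton pump subunit Atp6v0d2, and the regulator Tfeb fell by 0.85 ± 0.067. Cathepsin C (Ctsc), which activates granule proteases, rose by 1.56 ± 0.072. Of 24 antioxidant, metal and iron genes 15 were higher and 5 lower. Saa3 and Cp, acute phase proteins, rose by 4.96 ± 0.14 and 4.37 ± 0.21. The iron exporter Slc40a1 and the iron importer Tfrc fell by 1.51 ± 0.092 and 1.57 ± 0.096, while Hamp, the hormone that removes the exporter, rose by 1.50 ± 0.20 and the iron transporter Slc11a2 by 1.27 ± 0.074. Lcn2, which sequesters bacterial siderophores, rose by 1.30 ± 0.14 from an already high 12.27. Of 6 NADPH oxidase genes 3 were higher and 2 lower, with a median of 0.132.

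Surface adhesion, channels and other receptors gave mixed lists with single large members. For comparison, 18.4% of all genes were higher and 27.0% lower. Of 30 integrin and protease genes 12 were higher and 13 lower: Itgb8, which activates latent TGF-beta, rose by 3.86 ± 0.11 and the protease inhibitor Timp1 by 3.16 ± 0.14, and Itgb5 and the plasminogen activator Plau fell by 2.09 ± 0.063 and 2.10 ± 0.11. Of 30 ion channel genes 11 were higher and 13 lower, with Clic5 (2.96 ± 0.080) and the volume-regulated channel subunit Lrrc8c (1.98 ± 0.052) at the upper end and Kcnj2 at the lower end. Of 29 G protein-coupled receptor and related genes 10 were higher and 14 lower: the niacin receptor Hcar2 rose by 3.01 ± 0.11, and the sphingosine phosphate receptor S1pr1 and the lysophosphatidate receptor Lpar6 fell by 1.84 ± 0.14 and 1.97 ± 0.083. Among 32 lineage factors 21 were higher and 9 lower, with Nr4a3 (2.09 ± 0.18), Tcf4 (1.69 ± 0.068) and Irf8 (1.30 ± 0.093) up and Id3 (-1.53 ± 0.076) and Csf1r (-0.74 ± 0.060) down. Among 29 chromatin enzymes 8 were higher and 14 lower, 8 under cyclic loess, with Setdb2 (2.37 ± 0.096) highest and Hdac5 (-1.45 ± 0.063) lowest.

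**Figure D3:**
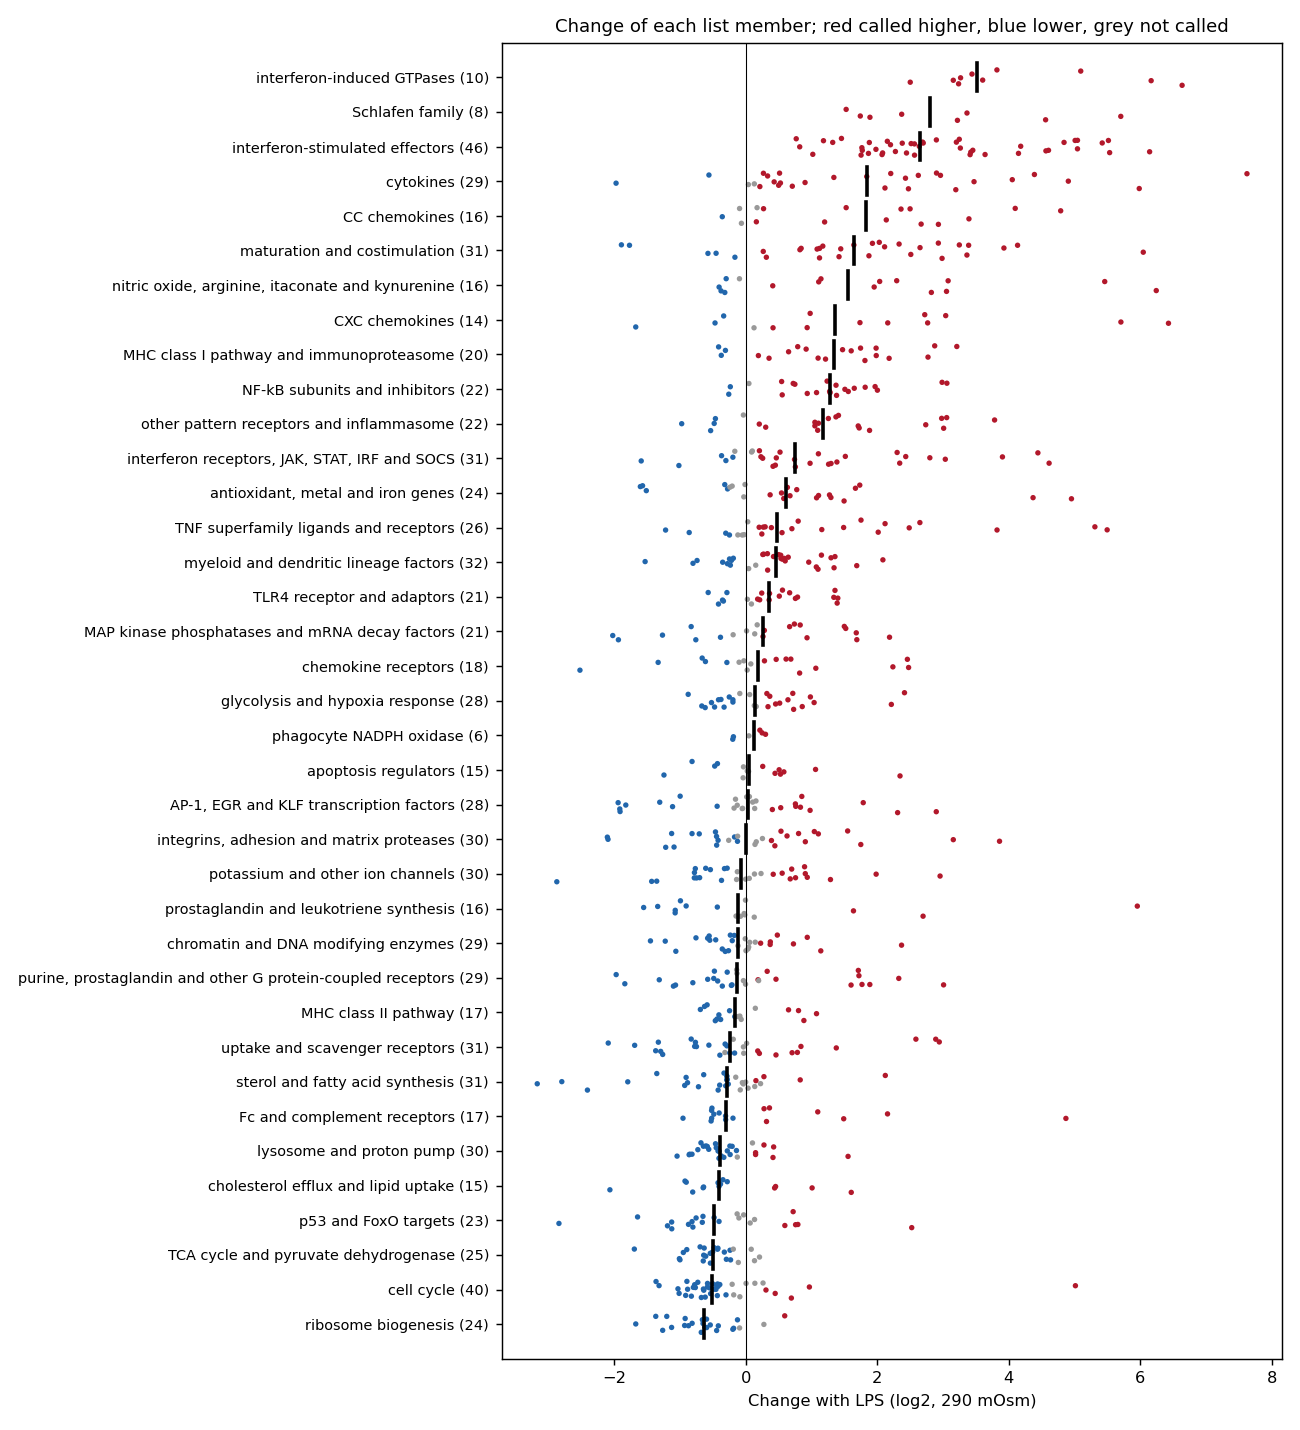
Change with LPS at 290 mOsm (log2) of each member of 37 gene lists, with the number of genes tested in brackets, red for called higher, blue for called lower, grey for not called, and a black bar at the median. The lists run from the interferon-induced GTPases (median 3.52) at the top to ribosome biogenesis (median -0.637) at the bottom.

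Markers of other cells were read beside these groups. Over all genes tested, 18.4% were called higher and 27.0% lower, and several of the marker counts lie near or under these shares. Of 15 neutrophil markers 5 were higher and 2 lower. Their mean level lay between 9.15 and 9.62 on the untreated arrays and between 9.21 and 9.59 on the LPS arrays, so the groups overlapped. Camp rose by 1.42 ± 0.11, S100a9 and S100a8 by 0.61 ± 0.18 and 0.53 ± 0.15, calls lost under quantile normalization, and Retnlg fell by 2.06 ± 0.24. Ltf did not pass the test (-0.044 ± 0.13). Nor did Ngp (0.40 ± 0.18, adjusted p = 0.0713), but its adjusted p was 0.0277 with the mouse as a block, 0.00429 in the 8 arrays at 290 mOsm alone, 0.0211 under cyclic loess, 0.0454 without the untreated array of mouse 4 and 0.019 without the 450 mOsm LPS array of mouse 3. Of 11 macrophage markers 4 were higher and 6 lower, with a mean level of 10.31 to 10.44 without LPS and 10.48 to 10.56 with it. Among 6 monocyte markers Vcan (4.56 ± 0.14), Plac8 (3.22 ± 0.15) and Chil3 (0.84 ± 0.15) rose and Ccr2 and Cx3cr1 fell. Of 8 T cell markers 1 was higher and 2 lower, namely Cd28 (-2.30 ± 0.11) and Cd4 (-0.75 ± 0.12), and Cd3d, Cd3e and Cd3g did not pass the test. Of 6 B cell markers 3 were higher and 1, Cd22 (-1.08 ± 0.076), lower. Of 10 mast cell and basophil markers 4 were higher and 1 lower, of 5 eosinophil markers 2 and 2, of 5 plasmacytoid markers 2 and 0, of 6 natural killer markers 1 and 1, of 3 erythroid markers 0 and 0, and of 6 stromal markers 2 and 0. The part of other cell types in the gene groups above was not tested.

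Among the genes that rose, the untreated arrays more often spread further between mice than the LPS arrays did. The median SD of the 4 within-mouse changes was 0.141 for the 769 genes at least 2-fold higher, against 0.116 for all genes. The SD between mice was larger without LPS than with it in 467 of these 769 genes (60.7%), in 203 of the 268 genes at least 4-fold higher (75.7%), in 298 of the 579 genes at least 2-fold lower (51.5%) and in 9233 of all 19272 genes (47.9%). Cxcl3 had the largest spread of change, an SD of 0.773. It read 8.73, 9.65, 7.94 and 9.51 without LPS and 11.69, 12.11, 12.09 and 12.11 with it, so mice 2 and 4 began higher and mouse 3 lowest. Gpr84, a receptor for medium-chain fatty acids, read 8.56, 9.57, 8.41 and 9.65 without LPS and 11.16, 11.36, 11.52 and 11.48 with it. Acod1 read 10.39, 11.28, 10.14 and 11.26 and then 13.79, 13.74, 13.87 and 13.88. In these genes, and in Clec4e, Cxcl2 and Ptgs2, the untreated arrays of mice 2 and 4 were above those of mice 1 and 3, and all 6 are among the 10 most variable genes. The same order without LPS was seen in Tnf (10.60, 11.10, 10.23 and 11.04) and Cxcl10, which were singled out after their values were seen. Signals with LPS were near the top of the scale for some of these genes, where the highest value in the table is 14.3, and the part of this in the smaller spread was not tested. The other 4 of the 10 were Nts, Il33, Ms4a4d and Stard9. The first 3 spread mainly with LPS: Il33 read 7.05, 7.29, 6.03 and 6.79 with LPS and 4.61, 4.69, 4.69 and 4.68 without it. Stard9 spread in both groups, with an SD of 0.23 without LPS and 0.32 with it.

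**Figure D4:**
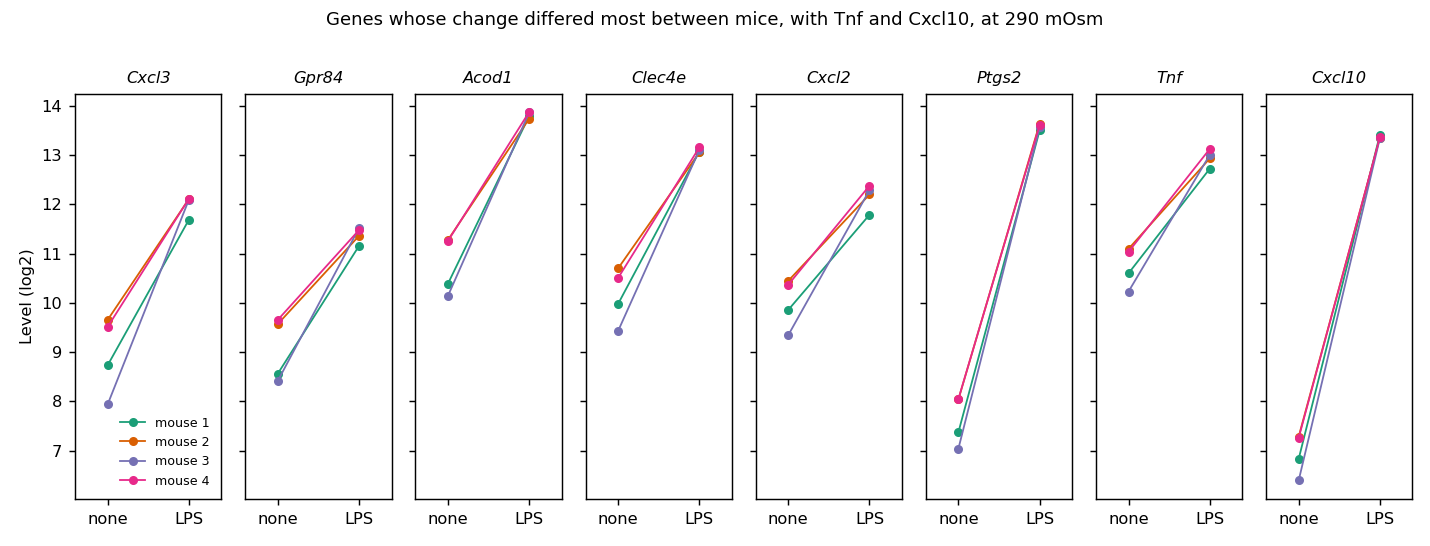
Levels (log2) without and with LPS at 290 mOsm for 8 genes, with a line for each of the 4 mice. The lines start apart, with mice 2 and 4 uppermost in each panel, and end closer together.

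The LPS response at 290 mOsm was set against the response of cells raised at 450 mOsm/L by adding NaCl from day 3. It was measured on 8 other arrays, which the labels give to the same mice. Of the 769 genes at least 2-fold higher at 290 mOsm, 756 were also called higher at 450 mOsm, and of the 579 lower genes 561 were called lower. The difference between the responses was tested as an interaction over all 19272 genes, which called 925 genes with a higher change at 450 mOsm (4.80%) and 936 with a lower one (4.86%). Without mouse 2 these were 527 and 583, and without mouse 1 the second was 602. Of the 769 genes, 238 had a smaller rise at 450 mOsm and 106 a larger one; since they were picked by their change at 290 mOsm, which favours smaller values elsewhere, this split is a description. Il6, the strongest gene, did not differ detectably (0.14 ± 0.12, adjusted p = 0.6).

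Some genes rose less in salt. Vcan, a matrix proteoglycan, rose by 4.56 ± 0.14 at 290 mOsm and by 1.84 ± 0.14 at 450 mOsm, a difference of -2.72 ± 0.19 (adjusted p = 1.95e-08). Its mean level without LPS was 7.10 at 290 mOsm and 9.83 at 450 mOsm, and with LPS 11.66 and 11.66. Rtp4, an interferon-stimulated gene, rose by 3.41 ± 0.11 and by 1.44 ± 0.11, from 7.86 and 9.65 without LPS. Ifitm6 rose at 290 mOsm (1.18 ± 0.12) and fell at 450 mOsm (-1.13 ± 0.12). Cfb, Saa3 and Ccl17 had differences of -1.78 ± 0.19, -1.90 ± 0.20 and -2.11 ± 0.41. In each of these 6 genes the level without LPS was higher at 450 mOsm than at 290 mOsm, with means of 7.73 and 10.39 for Ifitm6, 7.59 and 9.66 for Cfb, 8.46 and 10.57 for Saa3, and 8.19 and 11.30 for Ccl17, in the order 290 and 450 mOsm. The levels without LPS enter the difference by which these genes were picked, and the choice favours such an order, so it is no separate result.

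Other genes rose more in salt, or changed direction. Lcn2 rose by 1.30 ± 0.14 at 290 mOsm and by 5.45 ± 0.14 at 450 mOsm (4.16 ± 0.20, adjusted p = 2.21e-10), starting from 12.27 and 7.96 and ending at 13.56 and 13.41. Slamf1, an adhesion receptor of activated lymphocytes and dendritic cells, rose by 1.93 ± 0.12 and by 5.02 ± 0.12. Il33, Hamp and Ccl2 also rose further at 450 mOsm, with differences of 2.53 ± 0.27, 2.40 ± 0.28 and 2.16 ± 0.19. Opposite directions were seen for Chst11, a chondroitin sulfotransferase (-1.21 ± 0.11 at 290 mOsm and 1.96 ± 0.11 at 450 mOsm), for the lipid droplet gene Hilpda (-0.41 ± 0.098, a call lost under cyclic loess, and 2.40 ± 0.098), and for Gpr183, a receptor for oxysterols made from the product of Ch25h (-1.31 ± 0.12 and 1.38 ± 0.12). Vegfa fell at 290 mOsm (-1.97 ± 0.11) and was 0.14 ± 0.11 at 450 mOsm, where it did not pass the test (adjusted p = 0.359). Retnlg, a neutrophil marker, likewise fell at 290 mOsm and was 0.035 ± 0.24 at 450 mOsm, from 10.06 and 5.57 without LPS. Other neutrophil markers were also lower on the untreated arrays at 450 mOsm. Ngp read 12.05 to 12.54 at 290 mOsm and 6.00 to 6.51 at 450 mOsm, and Ltf 10.81 to 11.45 and 5.89 to 6.31. Csf3r differed less (9.36 to 9.84 and 8.81 to 9.10). The part of cell make-up in the differences between osmolarities was not tested.

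**Figure D5:**
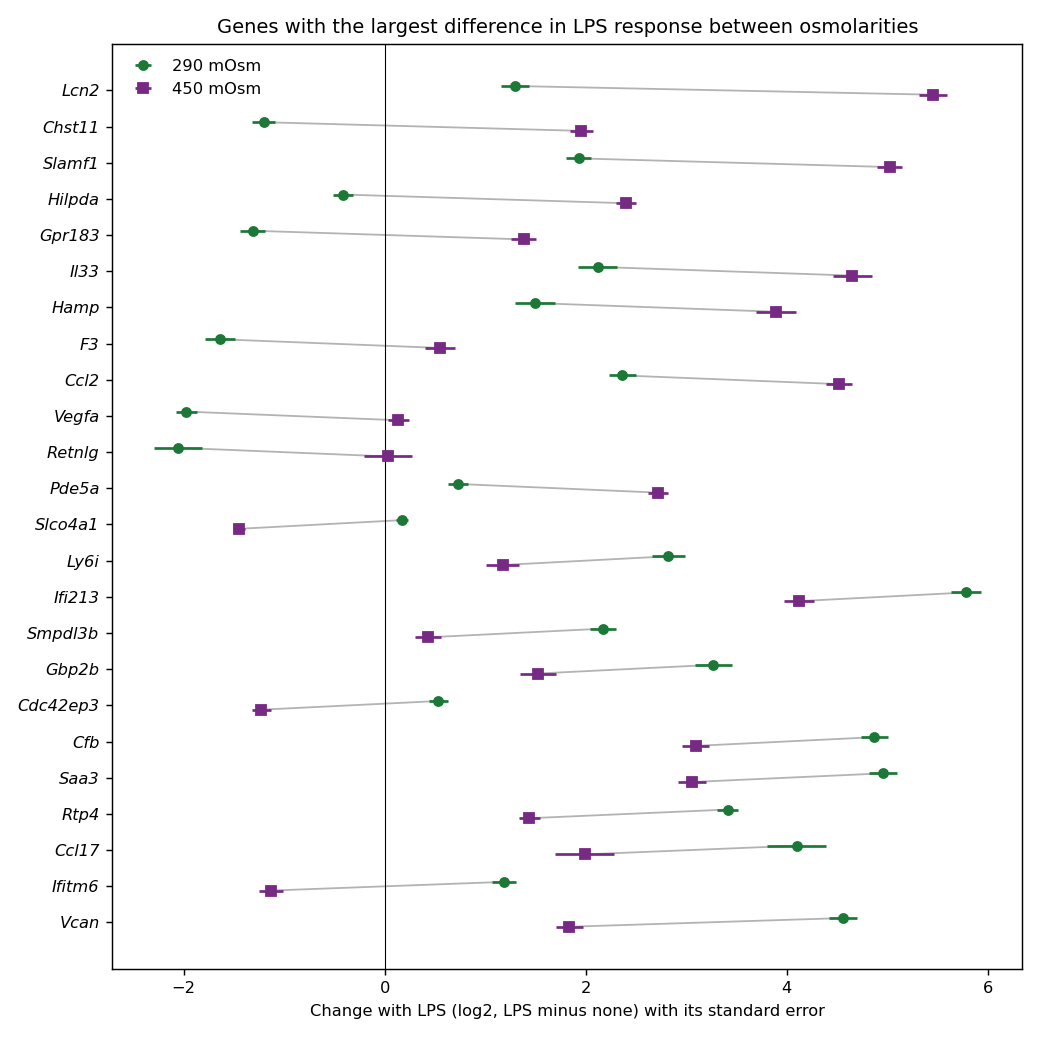
Change with LPS (log2, with limma's standard error) at 290 mOsm (circles) and 450 mOsm (squares) for the 12 genes with the highest and the 12 with the lowest difference between the responses. Lcn2 lies at the top with 1.30 and 5.45, and Vcan at the bottom with 4.56 and 1.84.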

How the data were processed

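The 16 samples were hybridised to Affymetrix Mouse Gene 1.0 ST arrays. The deposited values are log2 levels made by the authors with RMA in oligo, per the submitters' processing notes (versions and build not given in the sources used here). This method evens out the arrays' distributions, so a shift common to all genes cannot be seen. Of 22549 probe sets, 20646 had a single symbol in the platform annotation, 551 several and 1352 none; 20596 of the 20646 were found in RefSeq by gene ID, which changed 0 symbols. For the 810 genes with more than 1 such probe set, that with the highest mean over the arrays was used, and no filter on low values was set.

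Group means of all 16 arrays were fitted with limma 3.58.1 in R 4.3.3 (lmFit and eBayes, two-sided), with 12 residual and 6.86 prior degrees of freedom and no block for the mouse. P-values were adjusted by Benjamini-Hochberg over 19272 genes, and a gene was called at an adjusted p under 0.05. Errors after ± are limma's standard errors unless SD is given. Because the labels give a mouse to each number, the numbers pair the samples. At 290 mOsm deviations from the group means correlated at 0.0791 to 0.295 over the 4 pairs of the same mouse (median 0.168). Over 12 pairs of different mice they correlated at -0.207 to 0.0786. In pairs with a 450 mOsm array the ranges overlapped, at -0.114 to 0.334 for the same mouse and -0.369 to 0.338 for different mice. There the pairing rests on the labels. With 200 genes changed in simulated data of 19272 genes, the LPS comparison recovered 92% of changes of 0.5 and 100% of changes of 1 on the log2 scale, with 4% of its calls false, and the interaction recovered 72% and 100%, with 4.44% false. The simulated noise was normal and independent between arrays, with no mouse effect, and far fewer genes changed than the 8756 called here. These shares therefore check the fit and do not give the share of false calls in the data.

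Named genes were the 20 highest and 20 lowest called changes with the same sign in 4 of 4 mice, any member of the gene lists and cell type markers, the 12 highest and 12 lowest interaction changes among genes called in both tests, and the 10 called genes of at least 2-fold change with the largest SD over mice, leaving out predicted and clone-based symbols. The members and lists were chosen with earlier results of these data known. Lists are described by counts and medians with no test. List genes without a probe set of their own, such as Nfkb1, Isg15, Irf4 and H2-K1, were not analysed here. The alternatives were the mouse as a block or random term, the 8 arrays alone, filters on low values, probe set rules, further normalization, variance models, array weights, and leaving out each mouse or array.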

Additional observations from a re-analysis of the deposited data

Results flagged for a closer look

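Of 586 sets of 4 replicate values (293 genes named above, in each of the compared groups), 20 (3.41%) held an array that stood far from the other 3 by Dixon's criterion, where chance gives about 1 in 20. Levels are given on the log2 scale, each with the range of the other 3 arrays of the group. On the untreated array of mouse 1 this was Il33 (4.61 against 4.68 to 4.69). On the untreated array of mouse 3 these were Atf3 (11.90 against 12.06 to 12.09), Casp4 (8.50 against 8.72 to 8.77), Cxcl5 (5.73 against 6.08 to 6.12), Egr1 (8.11 against 8.51 to 8.58) and Glul (11.66 against 11.42 to 11.44). On the LPS array of mouse 1 these were Cd69 (12.34 against 12.05 to 12.07), Cxcl3 (11.69 against 12.09 to 12.11), Ifi214 (9.10 against 8.57 to 8.65), Il1b (13.26 against 13.31 to 13.32), Irf8 (11.38 against 10.91 to 10.99) and Pycard (9.38 against 9.15 to 9.17). On the LPS array of mouse 2 this was Tlr4 (9.12 against 9.30 to 9.32). On the LPS array of mouse 3 these were Dusp16 (9.61 against 9.86 to 9.90), Egr1 (7.59 against 7.21 to 7.26), Hilpda (7.30 against 7.40 to 7.41), Il15ra (10.22 against 10.41 to 10.45) and Oas1a (10.89 against 11.03 to 11.03). On the LPS array of mouse 4 these were Idh3g (10.27 against 10.37 to 10.39) and Vsir (9.28 against 9.02 to 9.06). Of the 20 values, 6 were from the LPS array of mouse 1, and Cxcl3 and Il1b were lowest there while Cd69, Ifi214, Irf8 and Pycard were highest.

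Of the genes named above in the comparison with salt-enriched medium, 16 had a response to LPS that differed between the osmolarities by the interaction test (limma, Benjamini-Hochberg over 19272 genes). These 16 were named there because they passed that test with the largest differences, so their passing is no separate result. Other genes named above passed it too. The change at 450 mOsm minus that at 290 mOsm, on the log2 scale, was below 0 for Vcan (-2.72), Ifitm6 (-2.32), Ccl17 (-2.11), Rtp4 (-1.97), Saa3 (-1.90) and Cfb (-1.78). It was above 0 for Lcn2 (4.16), Chst11 (3.16), Slamf1 (3.09), Hilpda (2.82), Gpr183 (2.70), Il33 (2.53), Hamp (2.40), Ccl2 (2.16), Vegfa (2.11) and Retnlg (2.09).

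The 1903 probe sets with several symbols or none entered no test. Of these, 61 (3.21%) were at least 2-fold higher with LPS at 290 mOsm with no overlap between the groups, the highest by 5.64 on the log2 scale, and 32 (1.68%) at least 2-fold lower. Their genes were not analysed here.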

How the results depend on the processing

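The counts of genes called for LPS at 290 mOsm, 3548 higher and 5208 lower, ranged from 3051 to 3141 and from 4699 to 4960 when a mouse was left out, and from 3217 to 3755 and from 4913 to 5280 when an array was. At least 2-fold, the counts of 769 and 579 ranged from 756 to 786 and from 559 to 622 over these fits, and from 704 to 875 and from 450 to 614 under the other alternatives. Only the stricter filter moved the count of higher genes by more than 1.5 times, to 2201, with 7365 genes tested. With the replicate block for the mouse the counts were 3637 higher and 5260 lower, 769 and 579 at least 2-fold, and 1011 and 998 for the interaction. The block changed the call of Ngp among the 293 named genes and of no other. Of all called genes 40.52% were higher, against 50.16% under cyclic loess, 46.72% after median centring and 35.93% with genes under the median left out. The interaction counts, 925 higher and 936 lower, fell to 527 to 698 and 583 to 764 without a mouse, and lay at 781 to 935 and 813 to 999 without an array and at 934 to 1097 and 769 to 1067 otherwise.

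Among the lists, cyclic loess moved the lower members of NF-kB (0, from 2), sterol and fatty acid synthesis (11, from 19) and chromatin enzymes (8, from 14), and the higher members of the TCA cycle (3, from 0), cell cycle (8, from 5) and ribosome biogenesis (2, from 1). With genes under the median left out, chemokine receptors had 5 higher members (from 9) and the TCA cycle 2. Over the whole promoter window the share of all genes with a response element was 3.87% (from 3.38%) and with a kappaB match 11% (from 9.48%). The change of Ly96 reversed under quantile normalization (-0.0031, adjusted p = 0.977). Of the 293 named genes, 12 changed their call or direction under some alternative, each named with its value or its setting above. The 17 interaction values kept their call and direction under all, but 16 of them were picked as extremes of that test. The cause of these shifts was not tested.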
